A study of Mus musculus with 3 samples.

Results

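MicroRNAs (miRNAs) that mark cells other than blood cells were followed on arrays of mouse CD4+CD8+ (double-positive) T cells. They were the endothelial hsa-miR-126, the smooth muscle pair hsa-miR-143 and hsa-miR-145, the epithelial hsa-miR-200b, hsa-miR-200c, hsa-miR-203 and hsa-miR-205, and the striated muscle hsa-miR-1 and hsa-miR-133a, given here by their probe names and below without the species prefix. Probes were chosen by that name, with mismatch probes left out. Of these 9 miRNAs, 8 had a probe of exactly that name and miR-133a was read on a probe shared with miR-133b, so 9 probes of the 1491 on the array are described. The arrays come from mouse work on T-cell leukaemia, in animals of the Balb/c background. The 3 kinds of double-positive cell compared were tumor cells that express ICN1, non-malignant cells that express ICN1, and normal thymocytes as control. ICN1 is the cleaved inner part of NOTCH1, which signals without a ligand. Each kind is 1 sample on 1 array read in 2 dyes, with the sample labelled in Hy3 and an equal mixture of all 3 samples, the pool, in Hy5. The sources used here do not give the age of the mice, the way ICN1 was introduced or the number of animals behind a sample. No difference below has a replicate check, no test between groups was possible, and precision is limited by there being 3 arrays. In bulk RNA, fewer cells of a type and less RNA per cell cannot be told apart.

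Mature miRNAs are short RNAs that guide silencing complexes to messenger RNAs, mainly through the seed at bases 2 to 8. Several are so concentrated in 1 tissue that they serve as markers of it. Double-positive thymocytes are immature T cells, and the thymus around them also holds epithelial cells, vessels and connective tissue, so the 9 probes bear on how much RNA of such cells the samples held. Array probes of this kind differ in how strongly they bind, so a level is read below against its own background and against negative control probes, and not against the probe of another miRNA.

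The mature mouse sequences show which of the markers share a seed, and therefore which could be read as 1 family. RefSeq (GRCm38.p6) gave 5 of them, printed 5′ to 3′ with the seed in capitals:
mmu-miR-126a-3p: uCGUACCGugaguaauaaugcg
mmu-miR-200b-3p: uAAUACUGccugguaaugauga
mmu-miR-200c-3p: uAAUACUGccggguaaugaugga
mmu-miR-203-3p: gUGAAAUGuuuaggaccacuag
mmu-miR-205-5p: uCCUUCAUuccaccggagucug

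miR-200b-3p (chr4:156055685-156055706, minus strand) and miR-200c-3p (chr6:124718324-124718346, minus strand) had the same seed. Over the 22 positions they share, counted from the 5′ end, they differed by U11G and A22G, with the miR-200b base first. The seeds of miR-126a-3p (chr2:26591402-26591423, plus strand), miR-203-3p (chr12:112130927-112130948, plus strand) and miR-205-5p (chr1:193507503-193507524, minus strand) each differed from it and from one another. The miR-126 gene lies in an intron of Egfl7, an endothelial gene. The probes carry human names and were matched to mouse miRNAs by name, and the probe sequences themselves were not used here.

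Of the 9 markers, 6 gave a Hy3 signal above threshold in all 3 samples, and the same 3 (miR-126, miR-143 and miR-205) were below it in all 3. Threshold means that at least 0.5 of a probe's 4 replicate spots exceeded the local background median by 2 background standard deviations (SD). By this rule 6 of 9 markers were detected in ICN1 tumor cells, 6 of 9 in non-malignant ICN1 and 6 of 9 in control cells. Of the 276 probes that name a mouse miRNA, 60.9% passed in ICN1 tumor, 56.2% in non-malignant ICN1 and 60.1% in control cells. All of the markers' signals were low, at most 76.1 intensity units above a background whose array median was 70, 82 and 77 units on the ICN1 tumor, non-malignant ICN1 and control arrays. Below, a level is the mean Hy3 signal minus local background over 4 spots, with the SD over spots, before any scaling between arrays. The 4 spots are repeat readings of 1 sample, so a gap between the spots of different arrays does not show that samples differed. Every marker except miR-1 had such a gap between some arrays, and the share of all probes with one is not given here.

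The endothelial marker came first. miR-126, which is made in endothelial cells and supports vessel growth, had a level of 3.91 ± 1.08 units in ICN1 tumor, -0.722 ± 1.28 in non-malignant ICN1 and 6.65 ± 1.06 in control cells (SD, 4 spots each). None of its 12 spots passed the threshold, and the brightest lay 0.694 background SD above background. Its opposite strand miR-126* lay below background on every array, at -2.24 ± 0.706, -7.98 ± 1.36 and -4.97 ± 0.519 units in ICN1 tumor, non-malignant ICN1 and control cells. Neither strand reached the threshold in any of the samples. This does not show that miR-126 was absent. All of its tumor spots (2.65 to 5.25 units) and control spots (5.19 to 7.62) lay slightly above local background. Its mean level was still below the median negative control probe, at 15.1, 7.24 and 12.9 units in ICN1 tumor, non-malignant ICN1 and control cells. These spots therefore cannot tell a weak miR-126 signal from none.

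The smooth muscle pair split. miR-143, transcribed with miR-145 from neighbouring genes and abundant in smooth muscle, had a level of 0.0862 ± 1.36 units in ICN1 tumor cells, -2.10 ± 0.787 in non-malignant ICN1 and 18.1 ± 1.64 in control cells. Its control spots, at 16.1 to 20.1 units, did not overlap those of the other arrays, which lay between -2.91 and 1.68 units. They still fell short of the threshold, at 1.51 to 1.92 background SD. miR-145 passed on all 3 arrays, with 26.7 ± 1.29 units in ICN1 tumor, 23.9 ± 0.758 in non-malignant ICN1 and 28.3 ± 1.30 in control cells, and its dimmest spot lay 2.10 background SD above background.

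Among the epithelial markers, miR-200b and miR-203 passed the threshold with all 4 spots on every array. miR-200b, which keeps epithelial cells in their state by silencing the repressors ZEB1 and ZEB2, had a level of 60.3 ± 1.49 units in ICN1 tumor cells, 76.1 ± 3.46 in non-malignant ICN1 and 61.7 ± 2.06 in control cells. Its spots on the non-malignant array (72.0 to 80.0 units) lay above those on the tumor array (59.2 to 62.4) and the control array (59.8 to 63.7), which overlapped each other. miR-203, a miRNA of the skin that restrains the stem cell factor p63, had 64.1 ± 1.15 units in ICN1 tumor cells, 54.3 ± 4.66 in non-malignant ICN1 and 56.9 ± 2.36 in control cells. Tumor spots (62.5 to 65.1 units) lay above the control spots (55.2 to 60.4), and the non-malignant spots (49.0 to 59.6) overlapped those of control.

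miR-200c, which shares the seed and the ZEB targets of miR-200b, was near the threshold, with 20.0 ± 2.76 units in ICN1 tumor cells, 30.6 ± 6.63 in non-malignant ICN1 and 31.1 ± 2.40 in control cells. In ICN1 tumor cells 2 of its 4 spots passed, the fewest that count as detected. miR-205, a miRNA of basal epithelium, had 1.23 ± 0.603 units in ICN1 tumor, -6.13 ± 1.04 in non-malignant ICN1 and 1.41 ± 0.656 in control cells, with no spot above threshold.

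Of the striated muscle markers, miR-1, made in heart and skeletal muscle under the factors SRF and MEF2, had almost equal levels on the 3 arrays: 58.5 ± 2.45 units in ICN1 tumor, 58.7 ± 1.55 in non-malignant ICN1 and 58.7 ± 2.65 in control cells. Its spots overlapped between all 3. The probe for miR-133a and miR-133b, of which miR-133a is encoded beside miR-1, had 28.2 ± 2.28 units in ICN1 tumor, 35.9 ± 5.45 in non-malignant ICN1 and 38.7 ± 2.88 in control cells. Tumor spots (25.9 to 30.5 units) lay below control spots (35.1 to 42.0), while the non-malignant spots (29.2 to 41.1) overlapped both.

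**Figure D1:**
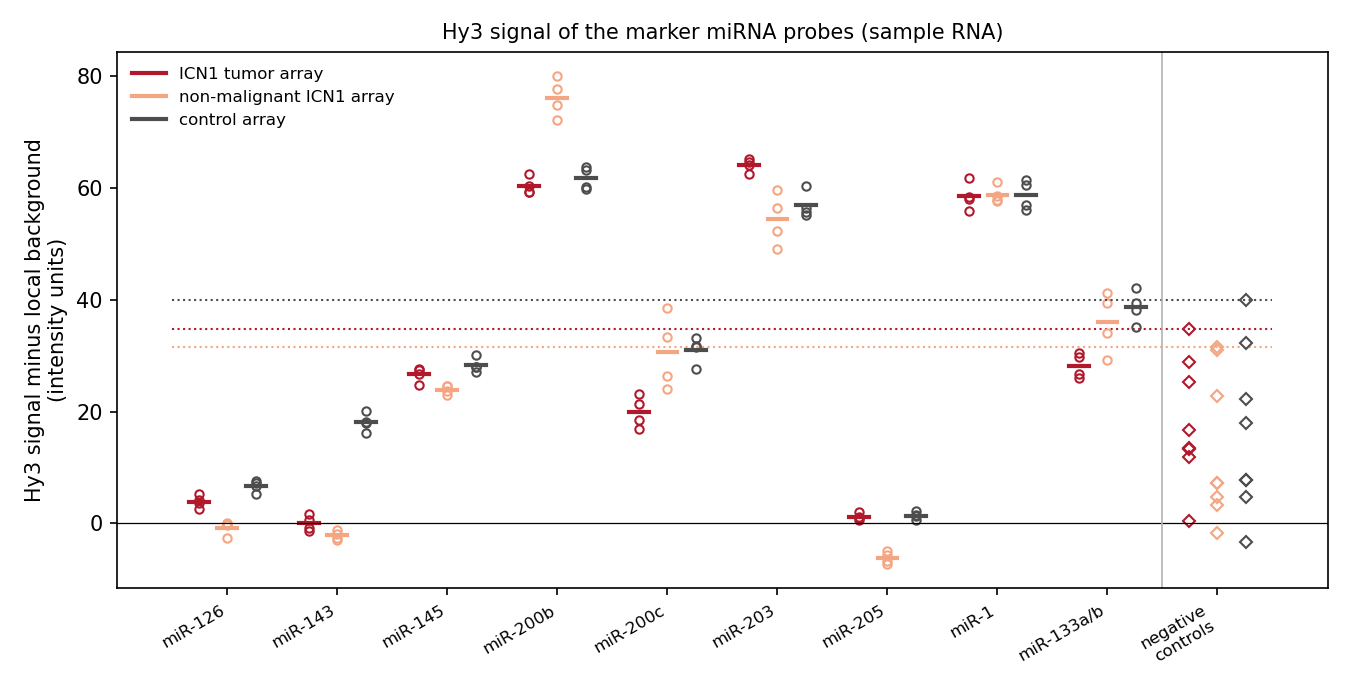
Hy3 signal minus local background in intensity units for the 9 marker probes on the ICN1 tumor, non-malignant ICN1 and control arrays; circles are the 4 replicate spots, bars their mean, diamonds the means of the 8 negative control probes, and dotted lines the highest of those means on each array. miR-200b, miR-203 and miR-1 lie above all negative controls on every array, while miR-126, miR-143 and miR-205 lie within their range or below it.

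Negative control probes reached part of the same range. The array carries 8 of them, and 4 passed the detection threshold in Hy3 on the ICN1 tumor array, 3 on the non-malignant ICN1 array and 3 on the control array. The highest of them had mean levels of 34.7, 31.6 and 40.0 units on the ICN1 tumor, non-malignant ICN1 and control arrays. Negative control spots could also fail to overlap between arrays. Those of hsa_negative_control_3 lay at 8.84 to 21.1, 4.01 to 5.33 and 7.02 to 8.40 units on these arrays. The 320 empty spots stayed near background, with a median of 1.13, 0.966 and 1.02 units on these arrays and no spot above threshold.

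Against the highest negative control, 3 of 9 markers had a higher mean level in ICN1 tumor cells, 4 of 9 in non-malignant ICN1 and 3 of 9 in control cells. miR-200b, miR-203 and miR-1 were above it on all 3 arrays and the miR-133a and miR-133b probe on the non-malignant array. The mean levels of miR-145 and miR-200c were below it on every array although they counted as detected. Counted by spots, miR-200c passed it on the non-malignant array, where 2 of its 4 spots were higher. Of the 276 mouse miRNA probes, 44.9%, 48.2% and 48.2% lay above the highest negative control on the tumor, non-malignant and control arrays.

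The pool gave a second reading of the same RNA, since each sample made up an equal part of it. Among the 9 markers, only miR-200b passed the threshold in Hy5, and only on the control array, where 2 of its 4 spots did. Its pool level was 7.80 ± 1.16, 10.2 ± 2.27 and 22.9 ± 9.27 units on the ICN1 tumor, non-malignant ICN1 and control arrays, although the pool was the same RNA each time. miR-203 had pool levels of 4.43 ± 3.49, 2.80 ± 4.58 and 7.39 ± 2.17 units on these arrays. miR-1 lay below its local background in the pool on every array, at -11.1 ± 0.754, -14.0 ± 5.85 and -13.9 ± 1.52 units, beside its Hy3 levels of 58.5, 58.7 and 58.7 units.

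Of the 6 markers detected in Hy3 on all arrays, 5 were thus detected in Hy5 on none, which is 83.3%. Over all mouse miRNA probes detected in Hy3 on all 3 arrays this held for 44 of 146, or 30.1%. Within the range of mean Hy3 level that the 6 markers spanned, 26.3 to 66.1 units, it held for 34 of 45 probes, or 75.6%, these markers included. Most such dim probes thus failed the threshold in the pool. This does not show that pool signal was absent. The median negative control lay below local background in Hy5, at -11.0, -14.4 and -13.5 units on the ICN1 tumor, non-malignant ICN1 and control arrays. On each array 7 of 9 markers lay above that median. These included miR-126 and miR-143, while miR-1 lay below it on the tumor and control arrays. The median over the 276 mouse miRNA probes was above it too, at -4.37, -7.57 and -2.01 units on the ICN1 tumor, non-malignant ICN1 and control arrays. The count of 7 therefore does not set the markers apart from other probes. None of the 8 negative control probes passed in Hy5 on any array.

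**Figure D2:**
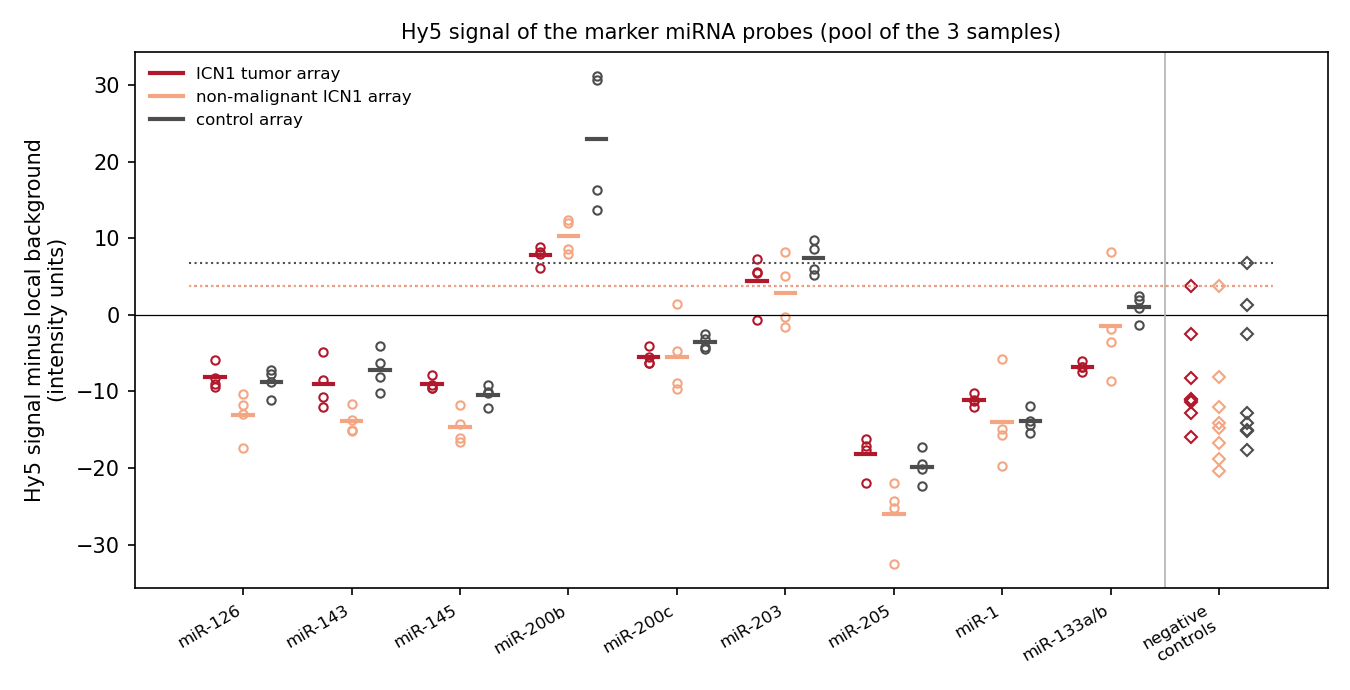
Hy5 signal of the pool minus local background in intensity units for the same 9 probes on the ICN1 tumor, non-malignant ICN1 and control arrays; circles are spots, bars their mean, diamonds the means of the 8 negative control probes, and dotted lines the highest of those means (3.69, 3.76 and 6.81 units). miR-200b lies above that line on every array, and most markers lie below 0, as most negative controls do.

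The array also holds mismatch probes for some markers, named by the suffix MM1 or MM2. What the number stands for is not stated in these sources, so the shares of MM1 and MM2 probes are given side by side and not ranked. The miR-203 mismatch probe (MM2) kept 61.1%, 64.8% and 65.4% of the perfect-match level on the ICN1 tumor, non-malignant ICN1 and control arrays. For miR-200b (MM1) the share was 55.7%, 70.2% and 61.9%, and the mismatch probe passed the detection threshold on all 3 arrays for both miRNAs. These shares were above the median of 36.7%, 14.5% and 20.2% over the 76, 74 and 80 pairs, MM1 and MM2 together, whose perfect-match probe was detected on these arrays. Those pairs include bright probes and were not matched for signal, so the gap does not set miR-200b and miR-203 apart from other dim probes.

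For the muscle markers all mismatch probes were MM1. Of the 2 mismatch probes of miR-1, the first kept 51.6%, 22.1% and 40.3% in ICN1 tumor, non-malignant ICN1 and control cells and the second 7.69%, -3.71% and 11.0%, where a negative share means a level below background. The first passed the detection threshold on the ICN1 tumor and control arrays, and the second on none. The miR-133a mismatch probe kept 20.7%, 7.33% and 14.4% and was not detected on any array. For miR-205, undetected itself, the mismatch probe (MM2) had 13.9 ± 2.28, 5.55 ± 1.48 and 11.5 ± 1.78 units in ICN1 tumor, non-malignant ICN1 and control cells, also below threshold. In the pool, only the miR-200b mismatch probe passed, on all 3 arrays, at 27.6 ± 1.31, 26.1 ± 11.3 and 32.6 ± 7.47 units, each time with a mean above the 7.80, 10.2 and 22.9 units of its perfect-match probe. What the miR-200b mismatch probe bound was not tested.

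**Figure D3:**
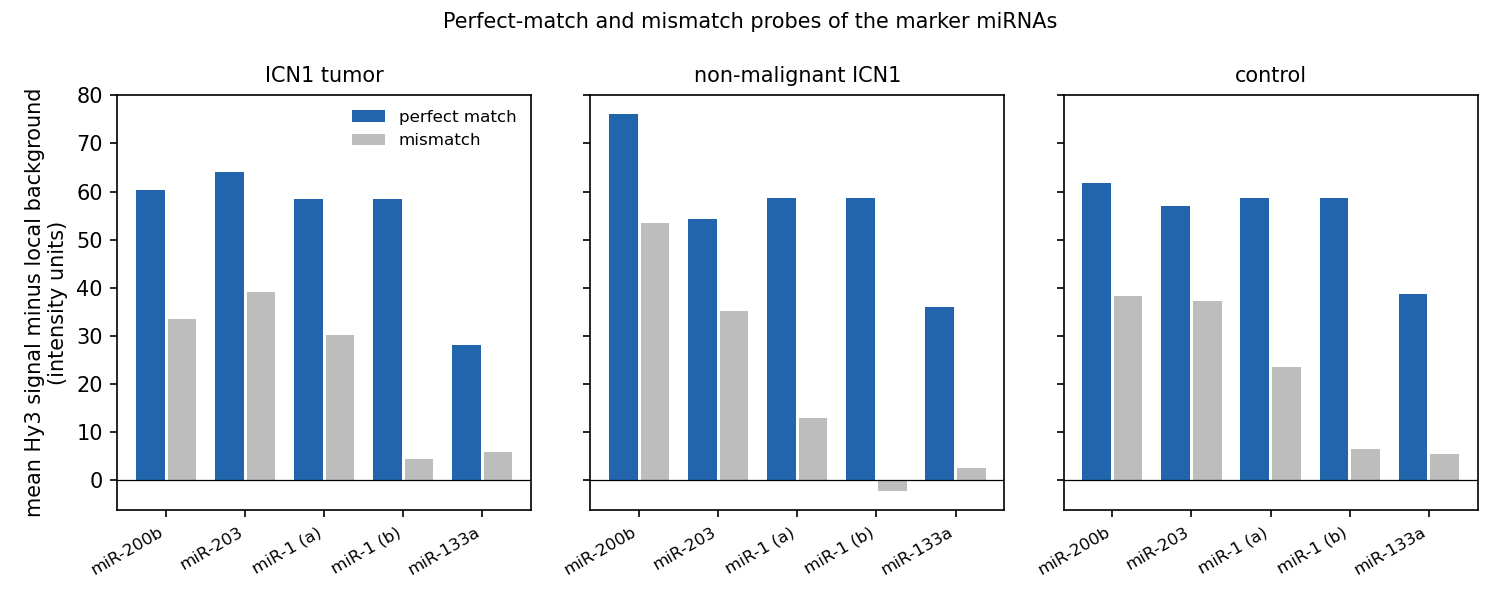
Mean Hy3 signal minus local background in intensity units for perfect-match probes (blue) and their mismatch probes (grey) on the ICN1 tumor, non-malignant ICN1 and control arrays; miR-1 has 2 mismatch probes, (a) and (b). The mismatch bars of miR-200b and miR-203 stay at 33.6 to 53.4 units, and those of miR-1 (b) and miR-133a lie between -2.18 and 6.46 units. Those of miR-1 (a) lie between 13.0 and 30.2 units.

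Differences between the samples were measured as log2(Hy3/Hy5) of an array minus that of another, after background correction and loess normalization, with the standard error (SE) over spots. The correction adds 50 units to both dyes, about as much as the markers' own signal or more, which pulls their ratios toward 0. A value near 0 here therefore does not show that levels were equal. A change of 2-fold or more, a difference of 1 on this scale, was the size rule. No marker reached it in any comparison. At signals this low a real 2-fold change could also fall short of it, so these counts cannot show that no marker changed 2-fold. The shares over mouse miRNA probes given beside them include bright probes, whose ratios the added units pull less. The medians below cover the 6 markers detected on both arrays.

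The first comparison set ICN1 tumor against control cells, where the markers served as a check on the purity of the double-positive samples. The largest differences were those of miR-200b (0.21 ± 0.039) and miR-203 (0.21 ± 0.023). With Hy3 alone they were 0.15 and 0.27. The pool signal at the spots of miR-200b differed by -0.23 between these arrays, about as much as its ratio, and at those of miR-203 by -0.06. miR-200c differed by -0.06 ± 0.026, miR-1 by -0.05 ± 0.033 (0.15 with Hy3 alone), the miR-133a and miR-133b probe by 0.02 ± 0.031 (-0.12 with Hy3 alone and -0.18 with print-tip loess) and miR-145 by -0.004 ± 0.023 (SE over spots). None of the 6 was at 2-fold, against 15.3% of the 177 mouse miRNA probes detected on at least 1 of these arrays (0.565% higher and 14.7% lower in tumor cells), and their median was 0.0074 beside -0.11 over all 177. Pool signal, which should be equal, varied between the arrays by 0.34 (SD over the 177 probes, bright ones included), more than either epithelial difference. At the 6 markers themselves it differed by -0.23 to 0.03. The 8 negative control probes differed by -0.05 to 0.14.

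Between ICN1 tumor and non-malignant ICN1 cells, miR-203 differed by 0.20 ± 0.025 and miR-200b by -0.12 ± 0.024, where loess fitted on mouse miRNA probes turned the miR-200b difference to 0.04. The other 4 detected markers lay between -0.07 for miR-200c and 0.03 for the miR-133a and miR-133b probe, which was -0.12 with Hy3 alone. None was at 2-fold, against 10.3% of 174 probes (0.575% higher and 9.77% lower in tumor cells), with a median of -0.02 beside -0.08 over all 174. The pool SD was 0.39 here, and the negative controls differed by -0.06 to 0.10.

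In non-malignant ICN1 against control cells, miR-200b differed by 0.34 ± 0.040, the largest marker difference in the 3 comparisons and outside the range of the negative controls, -0.09 to 0.08. The remaining 5 detected markers lay between -0.01 and 0.01. None was at 2-fold, against 5.99% of 167 probes (4.19% higher and 1.8% lower in non-malignant cells), and the median was -0.0028 beside -0.03 over all 167. With the Hy3 channel alone the miR-200b difference was 0.16, about the pool SD of 0.16, and the pool signal at its spots differed by -0.11 between the same arrays. The comparisons share arrays, so their values are not independent.

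**Figure D4:**
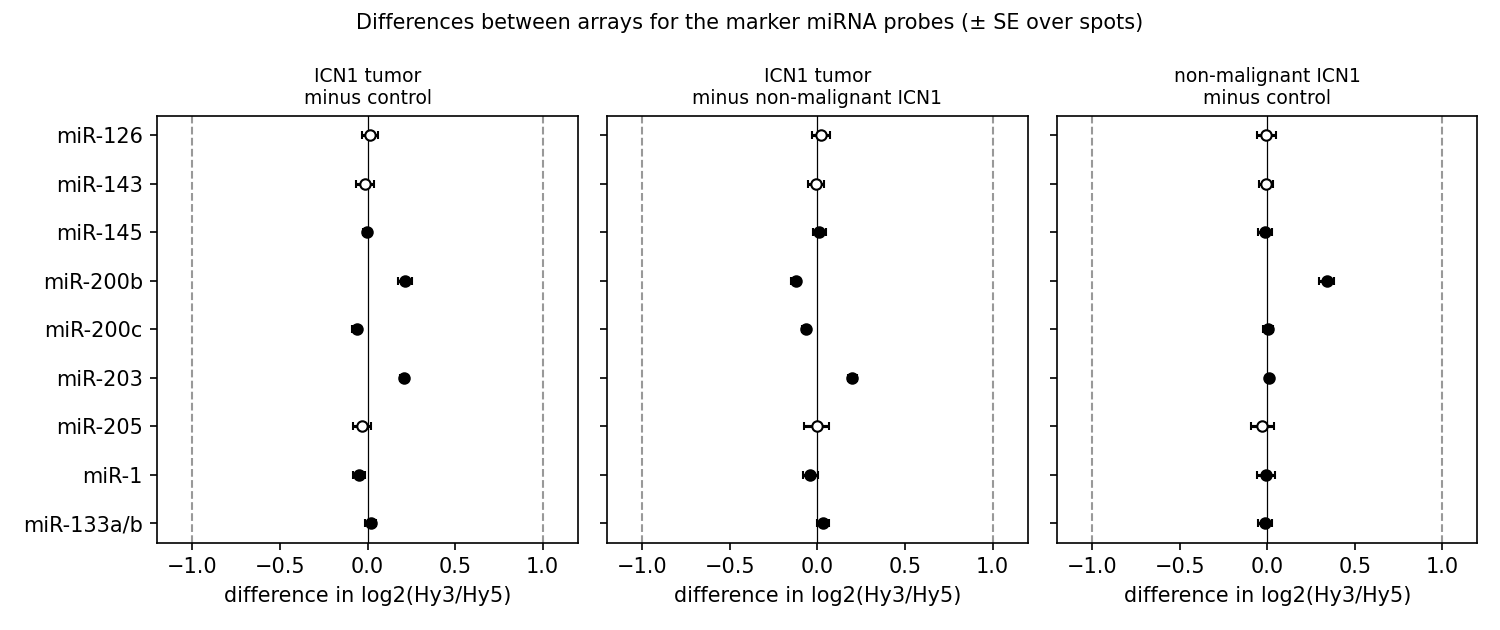
Difference in log2(Hy3/Hy5) between arrays for the 9 marker probes in the 3 comparisons; points are means, bars the SE over spots, open points the markers detected on neither array, and dashed lines the 2-fold limits at -1 and 1. All points lie within 0.34 of 0, with miR-200b and miR-203 farthest from it in both tumor comparisons and miR-200b alone apart from the rest in the other.

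Further miRNAs of stroma, epithelium and muscle, with 1 of liver, were read from a second list. Of 14 such probes, 2 were detected in ICN1 tumor, 2 in non-malignant ICN1 and 3 in control cells, beside 6 of 9 markers in each. miR-200a and miR-429, whose genes neighbour that of miR-200b, and miR-141, beside miR-200c, were not detected on any array. miR-208, a heart muscle miRNA, passed on all 3 arrays at 25.0 ± 0.921, 39.0 ± 21.2 and 28.7 ± 11.2 units, below the highest negative control on the tumor and control arrays. The liver miRNA miR-122a passed on the control array alone, at 34.9 ± 0.615 units, also below the highest negative control there (40.0 units). None of the 3 detected probes was at 2-fold in any comparison.

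The remaining detected probe of this list was that of miR-214, a miRNA of connective tissue. Its level was 1475 ± 175 units in ICN1 tumor cells, 1772 ± 22.2 in non-malignant ICN1 and 2177 ± 111 in control cells, with pool levels of 2033 ± 254, 2030 ± 29.8 and 2638 ± 118 units on these arrays. It was bright in both dyes and far above every negative control. Its ratio differed by -0.02 ± 0.016 in ICN1 tumor against control, by -0.15 ± 0.011 in ICN1 tumor against non-malignant ICN1 and by 0.13 ± 0.014 in non-malignant ICN1 against control cells. With loess fitted on mouse miRNA probes these values were 0.85, 0.42 and 0.44, while the median of all probes moved by 0.16, 0.08 and 0.06. Its partner miR-199a, with a gene next to that of miR-214, had levels of 0.272 ± 1.70, -3.81 ± 0.567 and -3.09 ± 0.575 units in ICN1 tumor, non-malignant ICN1 and control cells, and neither strand of it was detected, nor was miR-199b. What the miR-214 probe bound was not tested.

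Blood cell miRNAs were read the same way. Of 7 haematopoietic probes, 6 were detected in ICN1 tumor, 7 in non-malignant ICN1 and 7 in control cells, and 6 of them also in the pool on each array. The 3 erythroid probes (miR-451, miR-144 and miR-486) were detected in every sample. Probes of both lists moved between the groups. Of the 7 haematopoietic probes, 3 were lower at 2-fold in ICN1 tumor against control and 3 in ICN1 tumor against non-malignant ICN1 cells. In non-malignant ICN1 against control cells 1 was higher (miR-223) and none was lower. Some of these fell short of 2-fold with Hy3 alone, such as miR-142-3p at -0.22 in ICN1 tumor against control. Of the 3 erythroid probes, 2 (miR-451 and miR-144) were lower at 2-fold in each tumor comparison. In non-malignant ICN1 against control cells 1 of them (miR-451) was lower. In that last comparison miR-144 went the other way, by 0.72 ± 0.020. With Hy3 alone miR-144 fell short of 2-fold, at -0.58 in ICN1 tumor against control. It was then -0.97 in ICN1 tumor against non-malignant ICN1 cells. Over all mouse miRNA probes detected on at least 1 of the arrays, 14.7%, 9.77% and 1.8% were lower in these comparisons. Those higher were 0.565%, 0.575% and 4.19%.

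miR-451, a miRNA of red cell precursors, had a level of 505 ± 25.7 units in ICN1 tumor, 11409 ± 647 in non-malignant ICN1 and 23628 ± 468 in control cells, with no overlap of spots. Its ratio differed by -6.13 ± 0.0074 in ICN1 tumor against control, by -4.94 ± 0.0067 in ICN1 tumor against non-malignant ICN1 and by -1.19 ± 0.0085 in non-malignant ICN1 against control cells. With Hy3 alone these were -3.97, -3.71 and -0.26. The pool signal of this probe was not equal between arrays, at 20886 ± 975, 13388 ± 699 and 11379 ± 134 units on the ICN1 tumor, non-malignant ICN1 and control arrays. Whether erythroid RNA had a part in the marker values was not tested.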

How the data were processed

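miRNAs were measured on miRCURY LNA arrays of 2 dyes in 3 samples of Trizol-purified total RNA, per the labels' protocols. The authors deposited scanner tables with signal and background of each spot as intensity on a linear scale, before any normalization. A quality flag, deposited as a score, has no stated meaning. Which scanner and software made them is not stated in these sources. The deposited series value table was left aside, because 1 of its 345 row numbers occurred in the scanner tables.

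Spots with flag 3 were dropped, 51 of them on the ICN1 tumor array, 125 on the non-malignant ICN1 array and 72 on the control array, none of a marker. Ratios came from limma 3.58.1 in R 4.3.3, with normexp (offset 50), then global loess that gave control and mismatch spots no weight, then the mean over replicate spots. These steps were tested on simulated data, where the pass mark for recovering 2-fold changes covered only probes brighter than any marker. Python 3.11.15 did the rest, with pandas 2.3.3 and numpy 2.4.6 for tables, and matplotlib 3.10.9 for figures. Human-named probes were matched by name to mouse miRNA genes of RefSeq, and 276 matched. All 9 markers are named, and related or blood cell miRNAs come from lists. Markers and lists were chosen with earlier results of these data known. miR-214, miR-199a, miR-199b, miR-208 and miR-122a were singled out after their values were seen. Alternatives covered the detection threshold, background correction, normalization, the dye and the flags.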

Additional observations from a re-analysis of the deposited data

How the results depend on the processing

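With 1 array per group no replicate could be left out. No paired analysis was possible because each group has 1 sample. The count of 6 detected markers moved most with a stricter floor. At 3 background SD it was 3 in ICN1 tumor (miR-200b, miR-203 and miR-1), 4 in non-malignant ICN1 and 4 in control cells. With the highest negative control probe as the floor for at least 0.5 of the spots, chosen after seeing the data, it was 3 in ICN1 tumor, 5 in non-malignant ICN1 and 3 in control cells, where mean levels gave 4 in non-malignant ICN1 cells because miR-200c passed by spots alone. Against the 95th percentile of empty spots it was 7, 6 and 8, where miR-126 was added in ICN1 tumor cells and miR-126 and miR-143 in control cells. At 1 background SD it was 6, 6 and 7. No marker reached 2-fold in any of the 216 values from 8 other settings of background correction, normalization, dye and flags, markers below threshold included. The largest of them was 0.49, for miR-200b in non-malignant ICN1 against control cells with a normexp offset of 10. Each setting added units to the signal or left the background in, so a real 2-fold change could fall short there too. The median over detected markers ran from -0.06 to 0.07 in ICN1 tumor against control, from -0.04 to 0.04 in ICN1 tumor against non-malignant ICN1 and from -0.10 to 0.03 in non-malignant ICN1 against control cells. miR-143 differed by up to -0.39 in ICN1 tumor against control, without normalization, while below threshold on both arrays. The low signal over background limits what these probes can show.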
